A study of Mus musculus with 55 samples.

Results

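Aldo-keto reductases are NADPH-dependent enzymes that reduce aldehydes and ketones, among them glucose, products of lipid peroxidation, prostaglandins, steroid hormones and intermediates of bile acid synthesis. In mouse liver the family spans the aldose reductases of the Akr1b group, the hydroxysteroid dehydrogenases of the Akr1c group, the steroid 5β-reductase Akr1d1 and the aldehyde reductase Akr7a5. Akr1b7 is known as a target of the nuclear receptors CAR and PXR in mouse liver. The members described here are every listed gene whose symbol begins with Akr and a digit, together with Gm13857, a pseudogene that overlaps Akr1b7. They are 12 of the 4113 genes listed in 2 deposited RNA-seq tables, 11 of them in the table for Setd8-LKO + TCPOBOP and 4 in the table for WT + TCPOBOP. The 11 Akr genes are part of the 17 protein-coding genes of that name in the annotation. Akr1a1, Akr1b8, Akr1c19, Akr1c21, Akr1cl and Akr1e1 were not analysed here.

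RNA-seq was performed on whole livers of male C57Bl6 mice 45 to 50 days old, in 5 untreated wild type (WT) mice, 5 WT mice and 4 Setd8-LKO mice, the latter 2 groups taken 24 h after 3 mg/kg TCPOBOP, a CAR agonist that drives hepatocytes into division. Setd8-LKO mice carry floxed Setd8 alleles (Setd8 lox/lox) and AlbCre, a Cre driven by the albumin promoter that deletes exon 7 in hepatocytes. Setd8 places the single methyl group on lysine 20 of histone H4. The labels call the controls untreated, although corn oil is named as vehicle in the methods and DMSO as mock treatment elsewhere in the study's documents. ATAC-seq, ChIP-seq and CUT&Tag compared untreated WT with TCPOBOP-treated Setd8-LKO livers only, so genotype and treatment change together there, as they do between Setd8-LKO + TCPOBOP and untreated WT in RNA-seq. In a whole liver, fewer cells of a type and less RNA per cell cannot be told apart. The methods call the RNA-seq libraries biological replicates, and p-values measure the spread between them. The table headers mark 2 runs, A and B, and do not say of which step. Run A holds untreated libraries 3, 4 and 5, WT + TCPOBOP libraries 1, 2 and 3 and library 4 of those labelled Setd8-LKO, and run B holds the others.

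Counts are given as the authors' normalized counts, which are raw counts times 1 factor per library. Kmt5a, the gene encoding Setd8, stood at 613, 567, 761, 563 and 715 normalized counts in untreated WT libraries 1 to 5. It stood at 1341, 1465, 1338 and 1313 in the 4 libraries labelled Setd8-LKO. Every library labelled Setd8-LKO was above every untreated library, which goes against a loss of the transcript, but the count covers the whole gene and does not resolve exon 7. With DESeq2 factors over the listed genes its log2 difference was 0.27 in place of 1.08, and the groups are named here by their labels. Cyp2b10, the cytochrome P450 that serves as the standard readout of CAR in mouse liver, checks the treatment. It rose from 25 to 106 normalized counts in the untreated libraries to between 53827 and 61594 in the WT + TCPOBOP libraries and, where labelled Setd8-LKO, to between 31592 and 66038.

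Akr1b7, an aldose reductase-like enzyme that reduces aldehydes and prostaglandin H2, differed the most among the members after TCPOBOP in both genotypes. Its normalized counts were 4, 3, 10, 4 and 12 in untreated libraries 1 to 5. They were 1020, 808, 845, 946 and 784 in WT + TCPOBOP libraries 1 to 5, and 1084, 1574, 1010 and 1089 in the libraries labelled Setd8-LKO 1 to 4. No treated library came near the untreated range, and library 2 of those labelled Setd8-LKO stood above the other 3. The mean was 133-fold higher in WT + TCPOBOP and 180-fold higher in Setd8-LKO + TCPOBOP than in untreated WT. The untreated level rests on 31 raw reads over 5 libraries. On the log2 scale the difference fitted by edgeR's quasi-likelihood model was 7.0 ± 0.38 (SE) in WT + TCPOBOP and 7.44 ± 0.38 in Setd8-LKO + TCPOBOP. With factors computed over the listed genes it was 5.75 (TMM) and 5.82 (DESeq2) in the first and 7.44 and 6.63 in the second, so the size of the folds above rests on the authors' factors. Akr1b7 lies on the plus strand of chromosome 6 at chr6:34412334-34423142 (mm10).

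The tables hold only genes that the authors had selected as changed, so nothing is read from the share of members called. Of the genes tested, 98.0% were called changed in the Setd8-LKO table (58.5% higher and 39.5% lower) and 99.0% in the WT + TCPOBOP table (67.9% higher and 31.1% lower), at an adjusted p under 0.05 and a log2 fold change of at least 1 in either direction. All 11 members of the first table passed (5 higher, 6 lower), and so did all 4 of the second (4 higher, 0 lower). Their groups did not overlap in any of the 15 cases, beside 87.4% and 82.0% of all genes tested. Factors computed over the listed genes instead of the authors' own moved the median of all genes tested by -0.82 (DESeq2) and -0.01 (TMM) in the Setd8-LKO table and by -1.17 and -1.25 in the WT + TCPOBOP table, and the share of called genes that were higher went from 59.7% to 37.4% with DESeq2 factors in the first, and from 68.6% to 34.8% and 33.9% in the second. TMM and DESeq2 factors take most genes as unchanged, which a list of genes selected as changed does not meet. Here and below they cannot decide whether a gene changed, and only show how far a value depends on the scaling. The median log2 fold change was -1.03 over the members of the Setd8-LKO table, beside 1.16 over all genes tested there. It was 3.91 over those of the WT + TCPOBOP table, beside 1.34. Akr1b7, Gm13857 and Akr1c18 passed the filter on low counts through the treated libraries alone and so had to differ from untreated WT, which makes the counts and medians above a description, and no p is given for them. An exact two-sided permutation test gave p = 0.0159 for each other member with 4 against 5 libraries and p = 0.00794 with 5 against 5, the smallest values that these designs allow. Since the authors had selected these genes as changed from the same libraries, the values are a description and not read as support. The same holds for the adjusted p-values of members against untreated WT given below. With DESeq2 factors the members that fell in the Setd8-LKO table were lower still, at -1.86 (Akr7a5) to -2.32 (Akr1c20).

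**Figure D1:**
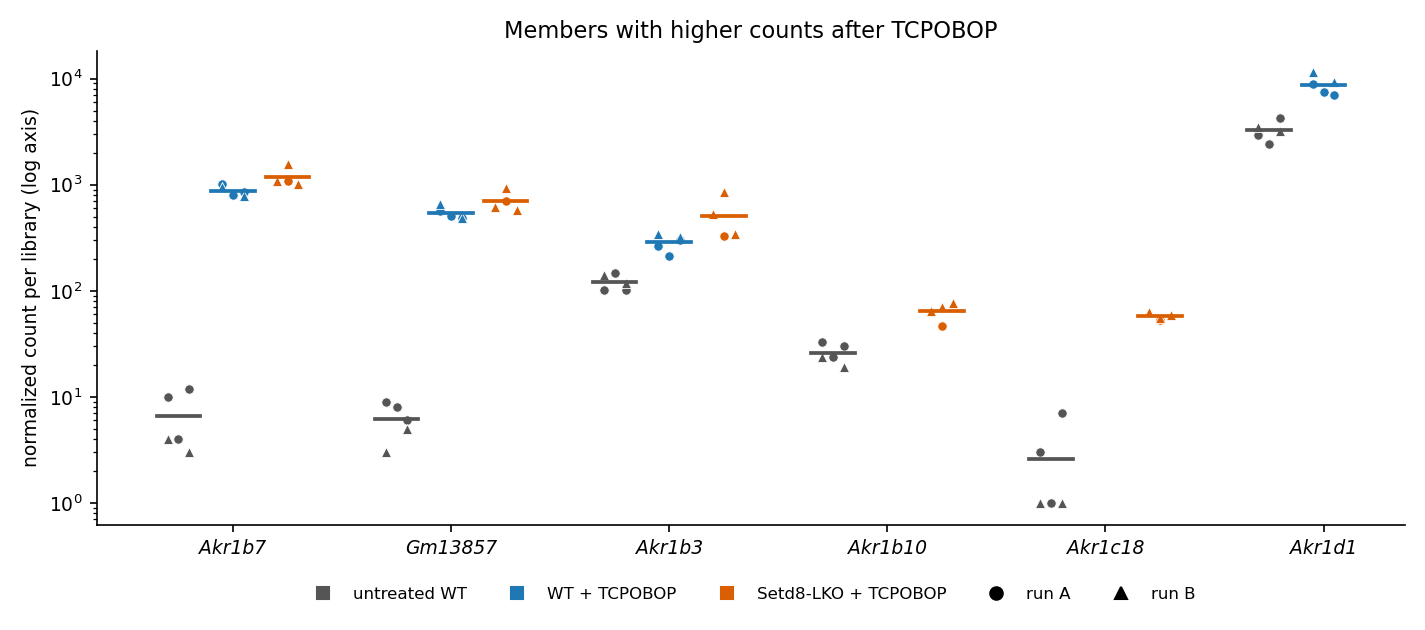
Normalized counts (log axis) of the 6 members higher in a treated group than in untreated WT under the authors' factors. There is 1 point per library, with circles and triangles for the 2 runs and a line at the group mean. Akr1b10 and Akr1c18 were listed for Setd8-LKO + TCPOBOP only, where genotype and treatment change together, and Akr1d1 for WT + TCPOBOP only. Akr1b7 goes from 3 to 12 counts in untreated WT to at least 784 in every treated library, and groups without points were not listed for that gene.

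The RefSeq promoter of Akr1b7 (GRCm38.p6) is shown beside that of its neighbour Akr1b10, since the first gene differed by far more than the second and an accessible site was called at the first only. Each sequence gives 200 bases of the sense strand, ending 51 bases before the RefSeq start. Capitals mark the nuclear receptor half-site AGGTCA, with its variant AGTTCA and a further variant, GGGTCA, and the box CCAAT, on either strand.
Akr1b7, chr6:34412112-34412311, plus strand: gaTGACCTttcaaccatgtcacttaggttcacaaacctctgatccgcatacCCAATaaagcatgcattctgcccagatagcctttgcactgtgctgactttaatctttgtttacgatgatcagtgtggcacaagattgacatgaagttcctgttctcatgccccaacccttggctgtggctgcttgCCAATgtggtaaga
Akr1b10, chr6:34383997-34384196, plus strand: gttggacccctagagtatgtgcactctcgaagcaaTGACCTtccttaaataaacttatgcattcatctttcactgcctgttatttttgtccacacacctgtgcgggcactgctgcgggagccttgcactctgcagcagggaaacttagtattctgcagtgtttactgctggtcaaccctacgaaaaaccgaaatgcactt
Akr1b7 holds 1 half-site, on the minus strand, and 2 CCAAT boxes, while Akr1b10 holds 1 half-site, also on the minus strand, and no CCAAT in the 300 bases searched. Promoters with an entry were found for 9 of the 12 members, and for Akr1b3, Akr1c20 and Gm13857 none was given. Of the 9, 6 had a half-site, beside 37.5% of all 32851 promoters of the same length. A pair of half-sites on the same strand 4 bases apart (DR4, the arrangement bound by CAR) was in 0 of the 9, and in 0.0639% of all promoters. CCAAT was in 37.4% of all promoters. These letters describe the window only.

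Gm13857, annotated as a transcribed processed pseudogene on the minus strand at chr6:34419396-34445436, followed Akr1b7. Its normalized counts were 3, 5, 9, 8 and 6 in the untreated libraries. They were 571, 509, 486, 654 and 482 in WT + TCPOBOP, and 617, 936, 577 and 699 in the libraries labelled Setd8-LKO. All treated libraries were again above all untreated ones, and the log2 fold change was 6.39 ± 0.30 in WT + TCPOBOP and 6.79 ± 0.29 in Setd8-LKO + TCPOBOP. The gene body of Gm13857 covers 5 of the 10 exons of Akr1b7 and 51% of its exon bases, and 348 bases are exon of both genes on opposite strands. Raw counts of Gm13857 were between 0.56 and 0.691 of those of Akr1b7 in every treated library. The strand setting of the counting is not given in the sources used here, so reads of both genes in the shared 3747 bases cannot be told apart.

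Akr1b3, the aldose reductase that turns glucose into sorbitol, rose less. Normalized counts were 141, 119, 101, 147 and 102 in untreated WT and 263, 214, 300, 344 and 322 in WT + TCPOBOP. In the libraries labelled Setd8-LKO they were 528, 845, 345 and 330. The treated libraries lay above the untreated ones in both comparisons, and libraries 1 and 2 of those labelled Setd8-LKO were the highest of all. The log2 fold change was 2.07 ± 0.29 in Setd8-LKO + TCPOBOP (adjusted p = 5.11e-05, edgeR) and 1.24 ± 0.20 in WT + TCPOBOP (adjusted p = 0.000155, edgeR). With DESeq2 factors over the listed genes the first value was 1.19 and still called. With factors computed over the listed genes, the value in WT + TCPOBOP was -0.01 ± 0.20 (TMM) or 0.08 ± 0.19 (DESeq2), near 0 and not called under either. The same factors moved the median of all genes tested there by -1.25 and -1.17. They take most genes as unchanged, which genes selected as changed do not meet. They therefore cannot decide whether Akr1b3 rose in WT mice, and its rise is given under the authors' factors only.

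The antisense gene Gm14546, also listed, shares no exon base with Akr1b3, yet its body holds the whole of Akr1b3. Its raw counts were 0.885 to 1.22 of those of Akr1b3 across all 14 libraries, with a median of 0.994. Whether reads of Akr1b3 were counted for Gm14546 was not tested, and its counts are not read as a separate transcript. Akr1b10, another aldose reductase-like gene 15.4 kb before Akr1b7, was listed for Setd8-LKO + TCPOBOP only. Its normalized counts were 24, 19, 33, 24 and 30 in untreated WT and 64, 70, 77 and 47 in the libraries labelled Setd8-LKO, a log2 rise of 1.31 ± 0.24 without overlap. With DESeq2 factors over the listed genes it was 0.53 (adjusted p = 0.0834, edgeR), and with the authors' factors it was 0.68 within run A and 1.66 within run B. Among annotated genes within 200 kb of Akr1b7, Akr1b3, Akr1b10, Gm13857 and Gm14546 were listed.

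Both treated groups share the untreated controls, so they were also set against each other over the 506 genes listed in both tables, a comparison added after the tables were seen to share 1 normalization. Of 494 genes tested, 45.7% were called (17.4% higher and 28.3% lower), and 0 of the 3 members found in both. Groups did not overlap in 50.6% of the genes, and overlapped in all 3 members. At an unadjusted p under 0.05, Akr1b3 and Akr1b7 differed. Akr1b7 was higher in the libraries labelled Setd8-LKO by 0.43 ± 0.18 on the log2 scale (adjusted p = 0.0567, edgeR), with overlapping groups. Gm13857 was at 0.39 ± 0.19 (adjusted p = 0.104, edgeR). With factors over these genes the 2 differences were 0.66 and 0.62 (TMM, adjusted p = 0.00597 and 0.0116, edgeR) and 0.68 and 0.63 (DESeq2 factors), all under the fold threshold. Without library 2 of those labelled Setd8-LKO they were 0.27 and 0.22. Akr1b3 was at 0.83 ± 0.29 (adjusted p = 0.0291, edgeR), under the fold threshold, and at 0.47 without library 2 of those labelled Setd8-LKO. It reached 1.06 with TMM factors and 1.08 with DESeq2 factors over these genes and was then called, and DESeq2's own test with the authors' factors called 0 members. Cyp2b10 was at -0.29 ± 0.21 (adjusted p = 0.265, edgeR).

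The Akr1c members are hydroxysteroid dehydrogenases encoded within 474 kb of chromosome 13 (chr13:4049011-4523345), and the 6 that were listed appear for Setd8-LKO + TCPOBOP only. Akr1c18, the 20α-hydroxysteroid dehydrogenase that inactivates progesterone, was higher, against the others. It had 1, 1, 3, 1 and 7 normalized counts in untreated WT and 63, 56, 59 and 53 in the libraries labelled Setd8-LKO. The mean was 22.2-fold higher, with a log2 fold change of 4.40 ± 0.42, from 12 raw reads over the 5 untreated libraries. Without untreated library 5, which holds 7 of its normalized counts, it was 5.05, and with DESeq2 factors over the listed genes it was 3.62.

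The other 5 fell. Akr1c6, the type 5 17β-hydroxysteroid dehydrogenase and the most abundant member, had 20137, 23973, 12201, 12453 and 15476 normalized counts in untreated WT. It had 4750, 5356, 8280 and 8873 in the libraries labelled Setd8-LKO, a log2 change of -1.31 ± 0.28 (adjusted p = 0.00103, edgeR). The 2 highest untreated libraries and the 2 lowest of those labelled Setd8-LKO came from the same run, B. Akr1c14, a 3α-hydroxysteroid dehydrogenase, had 8258, 7298, 4867, 4722 and 6032 in untreated WT and 1931, 2639, 3100 and 3288 in the libraries labelled Setd8-LKO, a log2 change of -1.19 ± 0.23. Akr1c20, which acts on 3α- and 17β-hydroxysteroids, had 1215, 1597, 782, 856 and 1083 against 306, 389, 352 and 531, a log2 change of -1.49 ± 0.25. In none of these genes did the groups overlap.

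Akr1c12 and Akr1c13 are close paralogues. Normalized counts of Akr1c12 were 1362, 1994, 1311, 1221 and 1517 in untreated WT and 490, 529, 677 and 782 in the libraries labelled Setd8-LKO. Those of Akr1c13 were 1644, 2157, 1519, 1368 and 1728 against 682, 732, 803 and 978. The log2 changes were -1.26 ± 0.20 and -1.07 ± 0.17, so both fell by a similar amount without overlap. Of the 50-base words in Akr1c12 transcripts, 28.6% also occur in Akr1c13, and reads there could be counted for either gene. The remaining Akr1c members shared at most 5.8% of such words with any other Akr gene or pseudogene of the loci. The promoters of this pair are shown because both genes fell while their histone marks differed, with the letters TGAGNNNGC in capitals.
Akr1c12, chr13:4279450-4279649, minus strand: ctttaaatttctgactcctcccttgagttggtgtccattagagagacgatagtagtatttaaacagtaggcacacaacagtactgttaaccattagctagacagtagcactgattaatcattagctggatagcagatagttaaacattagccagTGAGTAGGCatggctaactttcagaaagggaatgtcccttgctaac
Akr1c13, chr13:4190937-4191136, plus strand: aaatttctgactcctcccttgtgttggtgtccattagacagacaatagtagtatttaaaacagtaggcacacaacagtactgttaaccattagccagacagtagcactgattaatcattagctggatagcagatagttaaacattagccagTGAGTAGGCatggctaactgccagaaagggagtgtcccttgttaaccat
Over the 250 bases before the start, the 2 promoters were identical at 92.5% of aligned positions, while the other pairs of members with an entry reached at most 55.5%. For Akr1c14 the RefSeq window (chr13:4059341-4059640) lies inside the gene body, at a later start than that of GENCODE (4049011). The letters searched and the identity use the first start, and the peaks described below use the second. The letters TGAGNNNGC also occur at Akr1b7, on the minus strand at position 19 from the start, outside the sequence shown. They are in 17.6% of all promoters, and the related TGACNNNGC in 12.4% and in 0 of the 9 members.

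Akr7a5, which reduces succinic semialdehyde and dialdehydes of aflatoxin, also fell. It had 2489, 3068, 2170, 2020 and 2322 normalized counts in untreated WT and 1127, 1127, 1058 and 1431 in the libraries labelled Setd8-LKO, a log2 change of -1.03 ± 0.17 (adjusted p = 0.000163, edgeR). Every library labelled Setd8-LKO was below every untreated one. Without untreated library 2, Akr1c13 (-0.97) and Akr7a5 (-0.92) missed the fold threshold, and Akr7a5 (-0.97) did so without library 3 of those labelled Setd8-LKO. Within run A, where a single library labelled Setd8-LKO stands against 3 untreated ones, the log2 differences of Akr7a5 and the 5 falling Akr1c genes were between -0.59 and -0.79. Within run B, with 3 against 2 libraries, they were between -1.33 and -2.01. All 6 kept their sign in both runs and stayed short of a log2 difference of 1 in run A. The log2 difference of Akr1b7 was 6.82 in run A and 8.09 in run B.

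Akr1d1, the steroid 5β-reductase of bile acid synthesis, was listed for WT + TCPOBOP only. It had 3477, 3197, 2923, 2439 and 4283 normalized counts in untreated WT and 8798, 7510, 6942, 11465 and 9235 after TCPOBOP, a log2 rise of 1.43 ± 0.20 (adjusted p = 4.82e-05, edgeR) without overlap. Under TMM and DESeq2 factors over the listed genes the value was 0.17 and 0.25 and no longer passed. Its level in Setd8-LKO + TCPOBOP was not analysed here.

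**Figure D2:**
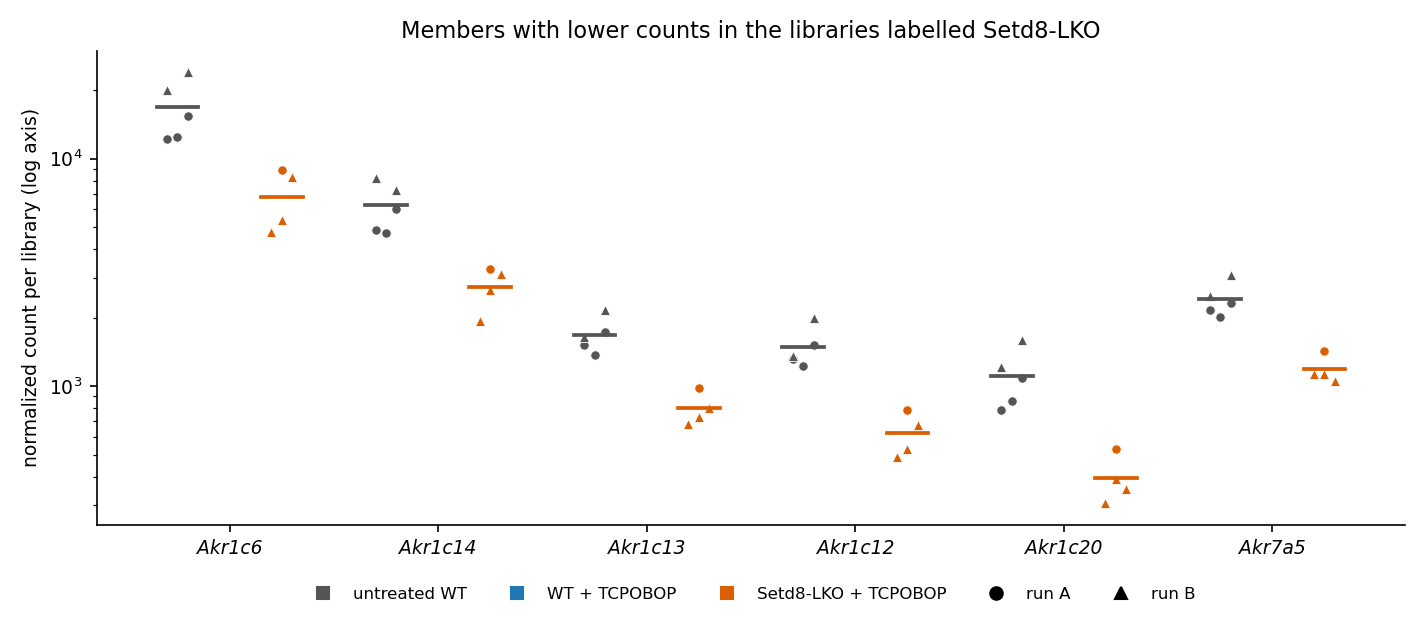
Normalized counts (log axis) of the 6 members with lower counts in the libraries labelled Setd8-LKO, 1 point per library. Circles and triangles mark the 2 runs, and a line marks the group mean. In each gene all 4 libraries labelled Setd8-LKO lie below all 5 untreated WT libraries, and the distance between groups is wider in run B than in run A.

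Levels of the genes are given divided by exon length. Whether reads in introns were counted is not given in the sources used here, and the near equal counts of Akr1b3 and Gm14546, which share no exon base, leave the order below uncertain. In untreated WT, normalized counts per kb of exon were highest for Akr1c6 at 8290 ± 2510 (SD, n = 5), followed by Akr1c14 at 1930 ± 474. Akr7a5 at 1350 ± 226, Akr1c12 at 1170 ± 243, Akr1c13 at 1170 ± 208 and Akr1d1 at 1130 ± 237 came next and did not differ beyond their spread. Akr1c20 was at 595 ± 174. Well below it came Akr1b3 at 14.6 ± 2.56, Akr1b10 at 7.36 ± 1.56, Akr1b7 at 5.15 ± 3.2, which did not differ beyond its spread from Akr1b10, Gm13857 at 2.17 ± 0.837 and Akr1c18 at 2.15 ± 2.16. In the libraries labelled Setd8-LKO, Akr1b7 at 928 ± 202 (SD, n = 4) per kb stood with Akr1c14 at 846 ± 186, and of the members of that table only Akr1c6 at 3350 ± 1020 was clearly above both. In WT + TCPOBOP, Akr1b7 was at 687 ± 77.7 (SD, n = 5) and Akr1d1 at 3040 ± 609.

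**Figure D3:**
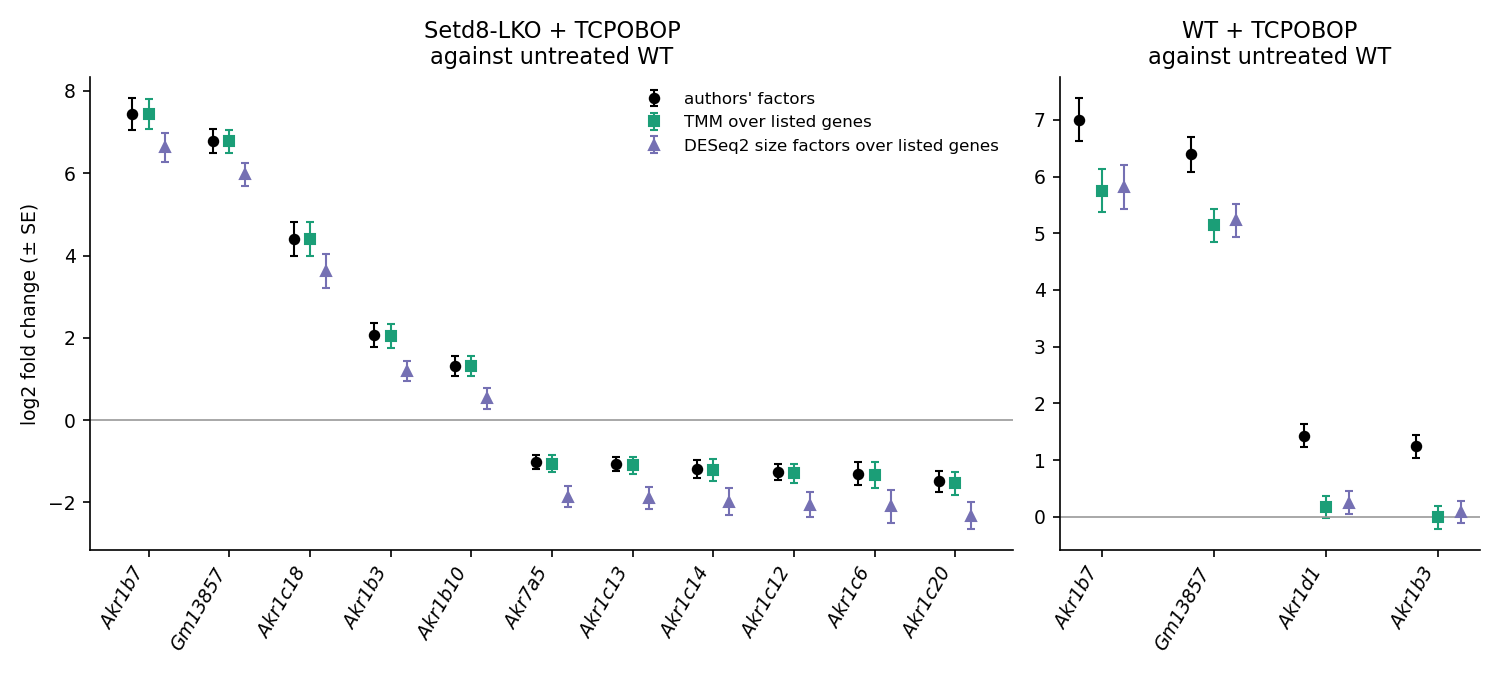
Log2 fold change of each member (points) with its standard error (bars) under the authors' factors and under 2 sets of factors computed over the listed genes, for Setd8-LKO + TCPOBOP (left) and WT + TCPOBOP (right), each against untreated WT. Akr1b7 and Gm13857 stay above 5 under every scaling, whereas Akr1b3 and Akr1d1 in WT + TCPOBOP go from 1.24 and 1.43 to near 0.

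Chromatin at the members was read from the authors' peak lists, 1 per condition and assay, which give no replicate error and were not tested. A locus was the gene body with 5 kb on either side. At these loci 12 of 17 ATAC-seq peaks of untreated WT (70.6%) overlapped a peak of the Setd8-LKO list, beside 73% of all ATAC-seq peaks. For H3K27ac, a mark of active promoters and enhancers, 23 of 33 (69.7%) did, beside 77.7% of all. Of the peaks of the Setd8-LKO lists, 3 of 15 for ATAC-seq and 1 of 21 for H3K27ac had no counterpart in untreated WT, beside 14.4% and 25.5% of all. CTCF, which binds insulators and loop anchors, had 0 peaks at the members in untreated WT and 3 in Setd8-LKO + TCPOBOP, and the cohesin subunit SMC3 had 1 and 3, with no overlap between the conditions. The CTCF list of Setd8-LKO is longer, with 20905 peaks against 5838, and 83.9% of its peaks had no counterpart in untreated WT, as was the case for 76% of the SMC3 peaks, so gained peaks of either are not particular to these genes. Of all untreated WT peaks, 58.1% for CTCF and 42.5% for SMC3 overlapped a peak of the Setd8-LKO list. A lost SMC3 peak is thus not particular to these genes either.

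At Akr1b7, an ATAC-seq peak over the promoter was called in both conditions, at chr6:34412024-34412379 with a fold enrichment of 12.8 in untreated WT and at chr6:34412028-34412362 with 8.89 in Setd8-LKO + TCPOBOP. It covers the promoter sequence shown above. The site was thus called open in untreated livers, in which Akr1b7 had at most 12 normalized counts. H3K27ac was called in Setd8-LKO + TCPOBOP only, at chr6:34412425-34412741 with a fold enrichment of 7.46, and its summit lies 294 bp after the start. A promoter peak of H3K27ac in the Setd8-LKO list alone was found for 5.98% of all listed genes. An ATAC-seq promoter peak in both lists was found for 29.8%, one in untreated WT alone for 8.29% and one in Setd8-LKO + TCPOBOP alone for 2.5%. No CTCF or SMC3 peak lay within 5 kb of Akr1b7. No peak of any of the 4 assays was called at Akr1b10 or at the start of Gm13857.

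Inside the gene body of Gm13857, CTCF and SMC3 peaks that overlap each other were called in Setd8-LKO + TCPOBOP only. They lie at chr6:34432038-34432297 (fold enrichment 11.3) and chr6:34432033-34432339 (11). At the Akr1b3 promoter, H3K27ac was called in both conditions, with a fold enrichment of 25.3 in untreated WT and 43.3 in Setd8-LKO + TCPOBOP. CTCF (chr6:34317094-34317623, 12.9) and SMC3 (chr6:34316898-34317664, 61) were called there in Setd8-LKO + TCPOBOP only. This pattern was found for CTCF at the promoters of 31.1% of all listed genes and for SMC3 at 39.5%, while 64.2% and 45.9% had no such peak in either condition. Between Akr1b3 and Akr1b8, the CTCF peak at chr6:34346617-34346838 was kept, with fold enrichments of 11.7 and 13.8, while the SMC3 peak over it in untreated WT (chr6:34346463-34346897, 20) had no counterpart in Setd8-LKO + TCPOBOP. Of all untreated WT peaks, 58.1% were kept for CTCF and 42.5% for SMC3.

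**Figure D4:**
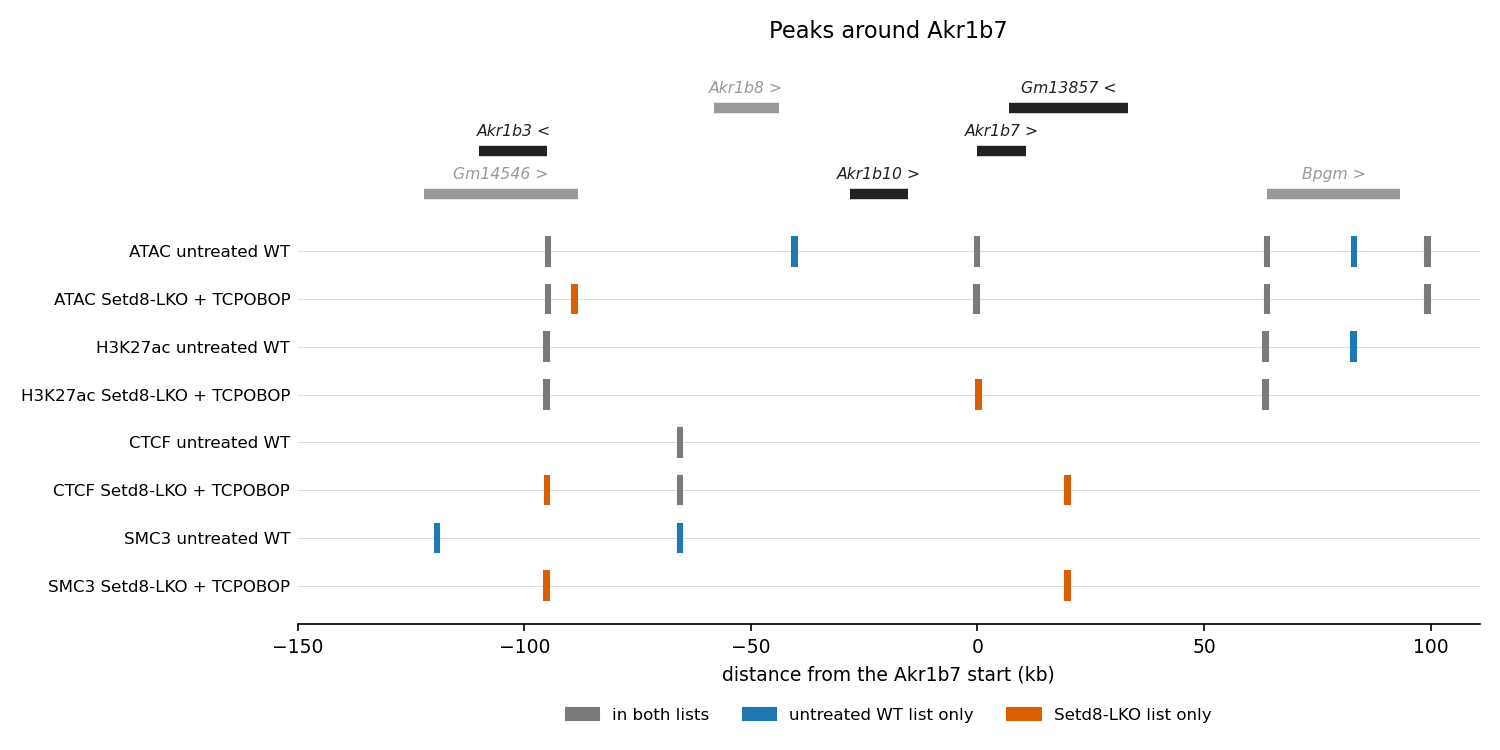
Peaks of 4 assays in untreated WT and Setd8-LKO + TCPOBOP against the distance from the Akr1b7 start in kb, with gene bodies above (black, members, and grey, others, with arrowheads for the strand). Grey boxes are peaks in both lists, blue in untreated WT only and orange in Setd8-LKO only, narrow peaks are drawn wider than they are, and the orange H3K27ac box at 0 kb is the only H3K27ac peak at Akr1b7.

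The sequences under the kept and the gained CTCF peaks are shown because they differ in how well they match the CTCF consensus. Capitals mark the closest match to the 12-base consensus of CTCF within 100 bp of the summit, on the strand that holds it (GRCm38.p6).
Kept site, chr6:34346721-34346761, minus strand: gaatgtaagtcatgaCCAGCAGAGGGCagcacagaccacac
Gained at Akr1b3, chr6:34317289-34317329, plus strand: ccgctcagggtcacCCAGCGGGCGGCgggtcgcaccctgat
Gained in Gm13857, chr6:34432079-34432119, plus strand: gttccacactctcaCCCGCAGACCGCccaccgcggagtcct
The kept site matched the consensus at every position, and the gained sites had 2 and 3 mismatches. On chromosomes 4, 6 and 13, which hold all members, 62.5% of the 517 kept CTCF peaks of the Setd8-LKO list had a match with at most 1 mismatch, against 12.7% of the 2709 gained peaks. A match with at most 3 mismatches is found in 93.4% of the gained peaks and says little.

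The Akr1c genes sit in chromatin with many H3K27ac peaks. In the region from 50 kb before Akr1c14 to 50 kb after Akr1c20, 25 of the H3K27ac peaks of untreated WT were kept and 12 were lost, beside 77.7% kept of all, and 0 were gained, beside 25.5% of all peaks of the Setd8-LKO list. At the Akr1c14 promoter, the fold enrichment was 19.2 and 19.8 for the 2 peaks of untreated WT next to the GENCODE start and 12.1 and 9.38 for those of Setd8-LKO + TCPOBOP. At Akr1c13 it was 9.81 and 6.15. At Akr1c12 the promoter peak of untreated WT (chr13:4278890-4279423, 10.6) had no counterpart. A promoter peak of H3K27ac in untreated WT alone was found for 2.5% of all listed genes. ATAC-seq peaks at the promoters of Akr1c12, Akr1c13 and Akr1c14 were called in both conditions, with fold enrichments of 10.4 and 9.86 at Akr1c12. At Akr1c6 the promoter H3K27ac peaks were kept, with fold enrichments of 14.5, 8.04 and 7.38 in untreated WT and 9.26 and 10 in Setd8-LKO + TCPOBOP, and the last of each list overlap. A promoter ATAC-seq peak was called at Akr1c6 in Setd8-LKO + TCPOBOP only (chr13:4434308-4434451, 4.12). At Akr1c20 the promoter H3K27ac peaks of untreated WT stood at 6.47, 9.22 and 7.26, of which the last had no counterpart, and the 1 of Setd8-LKO + TCPOBOP at 9.0. The highest promoter fold enrichment was thus lower in the Setd8-LKO list at Akr1c14, Akr1c13 and Akr1c6. At Akr1c12 no promoter peak was left, and at Akr1c20 the highest values were near equal (9.22 and 9.0). The overlapping peaks of 7.38 and 10 at Akr1c6 went the other way, and a shared direction was not tested.

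Akr1c18, the member of this cluster that was higher, had no promoter peak of ATAC-seq, H3K27ac, CTCF or SMC3 in either condition. Of all listed genes, 38.5% lacked an H3K27ac promoter peak in both lists and 59.4% an ATAC-seq one. Before Akr1c13, an SMC3 peak (chr13:4186704-4187003, 26.4) was called in untreated WT only and a CTCF peak (chr13:4183355-4183661, 15.1) in Setd8-LKO + TCPOBOP only. Beside this, 42.5% of all SMC3 peaks of untreated WT were kept, and 83.9% of all CTCF peaks of the Setd8-LKO list were gained. Between Akr1c12 and Akr1c6, an island of H4K20me3, a mark of closed chromatin built on the methyl group that Setd8 places, spanned chr13:4320001-4360000 in untreated WT and chr13:4320001-4420000 in Setd8-LKO + TCPOBOP. It came within 74.3 kb of Akr1c6 in the first and 14.3 kb in the second list. No LaminA/C or H4K20me3 island lay within 5 kb of any member. At the promoters, 93.7% of all listed genes had no LaminA/C island in either list and 94.9% no H4K20me3 island, so this absence is not particular to the members.

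**Figure D5:**
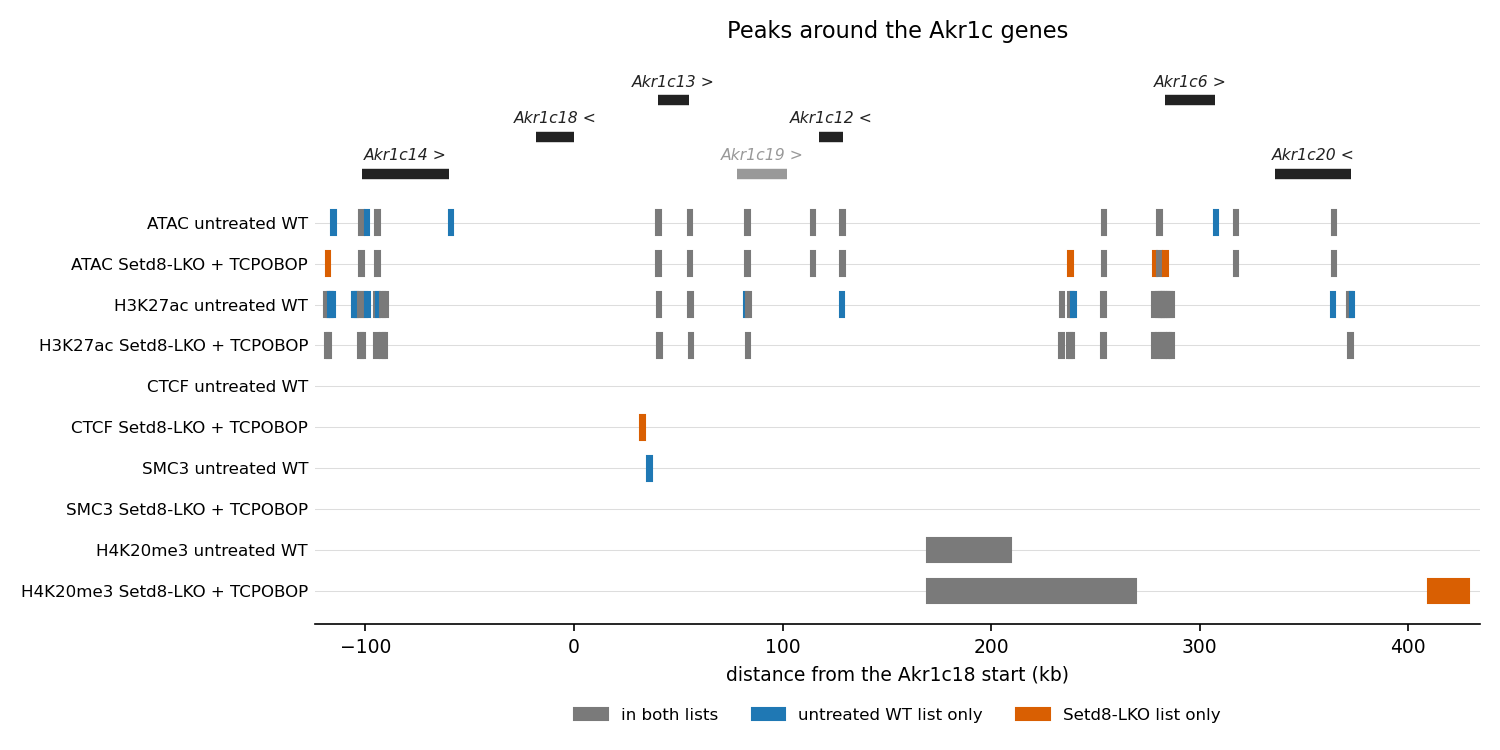
Peaks of 4 assays and islands of H4K20me3 in untreated WT and Setd8-LKO + TCPOBOP against the distance from the Akr1c18 start in kb, with gene bodies above (black, members, and grey, Akr1c19). Colours are as in the map around Akr1b7, narrow peaks are drawn wider than they are, several neighbouring boxes merge, H3K27ac has blue boxes and no orange one, and no peak lies on Akr1c18.

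At Akr7a5, the promoter peak of H3K27ac was kept, with a fold enrichment of 54.2 in untreated WT and 36 in Setd8-LKO + TCPOBOP, while CTCF (chr4:139310841-139311039, 10.9) and SMC3 (chr4:139310278-139311505, 52.5) were called in Setd8-LKO + TCPOBOP only. Both ATAC-seq peaks near its start were called in untreated WT only. CTCF and SMC3 thus appeared at the promoters of Akr1b3, which rose, and of Akr7a5, which fell. At Akr1d1 the H3K27ac promoter peak of untreated WT (chr6:37530354-37531225, 10.2) had no counterpart, and the ATAC-seq promoter peak was kept.

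Other reductases and the pathways around the members are given by fixed lists, of which only listed genes can be counted. In Setd8-LKO + TCPOBOP, 16 of 35 other carbonyl and alcohol reductases and dehydrogenases were listed, and 7 rose and 9 fell. Cbr3, a carbonyl reductase, rose by 3.58 ± 0.33 on the log2 scale and the retinol dehydrogenase Dhrs9 by 2.42 ± 0.36, while the alcohol dehydrogenases Adh4 and Adh7 were at -3.53 ± 0.26 and -2.53 ± 0.24. In WT + TCPOBOP, 4 were listed and rose, led by Aldh1a1 at 1.94 ± 0.25 and Cbr1 at 1.72 ± 0.19, and 0 of them passed with TMM or DESeq2 factors over the listed genes. Of 10 genes of the polyol pathway and fructose use, 5 were listed for Setd8-LKO + TCPOBOP. The fructose transporter Slc2a5 was at -3.54 ± 0.31, 4 fell in all, and hexokinase 2 (Hk2) rose by 2.03 ± 0.26. In WT + TCPOBOP only the glucose transporter Slc2a2 was listed, at -1.29 ± 0.36, and it was not called with p adjusted over the reference genes (adjusted p = 0.376, edgeR).

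Steroid and bile acid genes fell in the libraries labelled Setd8-LKO. All 9 listed genes of steroid hormone reduction and oxidation, of 22 in the list, fell, with a median of -3.12 beside 1.16 over all genes tested, led by Hsd3b5 at -10.32 ± 0.63 and Hsd3b2 at -3.88 ± 0.30. In WT + TCPOBOP 7 of 8 fell, with Hsd3b5 at -3.57 ± 0.62 and Hsd3b1 at -3.40 ± 0.83, and Hsd17b7 rose by 1.26 ± 0.21. Without WT + TCPOBOP library 4 the first 2 were at -4.19 and -3.99, and Hsd3b1 was at -2.86 without untreated library 3. With p adjusted over the reference genes Hsd3b1 was not called (adjusted p = 0.174, edgeR). Hsd17b7 was at 0.01 with TMM factors and 0.10 with DESeq2 factors over the listed genes and was not called under either. The Hsd3b genes are close paralogues, between which reads may be split. Of 14 bile acid genes, 7 were listed for Setd8-LKO + TCPOBOP and all 7 fell, among them the oxysterol hydroxylase Cyp7b1 at -4.94 ± 0.49 (-5.55 without library 3 of those labelled Setd8-LKO) and the sterol 12α-hydroxylase Cyp8b1 at -3.61 ± 0.40. Cyp7b1 was the 1 listed for WT + TCPOBOP, at -2.06 ± 0.27. CAR response genes rose in both: 22 of 22 tested in Setd8-LKO + TCPOBOP and 24 of 24 in WT + TCPOBOP, of 33 in the list (14 and 13 with DESeq2 factors over the listed genes), led by Cyp2b10 with the sulfotransferase Sult2a1 at 9.30 ± 1.24, from a mean of 0.617 normalized counts, in the first and Gadd45b at 6.36 ± 0.47 in the second. The median log2 change of the CAR list was 3.13 in Setd8-LKO + TCPOBOP, beside 1.16 over all genes tested. In WT + TCPOBOP it was 2.54, beside 1.34. Since 58.5% and 67.9% of all genes tested were called higher, the counts largely follow from the selection. Sult2a1 was at 12.04 without untreated library 3 and Gadd45b at 6.98 without untreated library 4. Of 24 NRF2 response genes, the antioxidant programme to which aldo-keto reductases are often assigned, 9 were listed for Setd8-LKO + TCPOBOP. Here 7 rose, led by Gpx2 at 4.21 ± 0.59, from a mean of 1.073 normalized counts in untreated WT, and Srxn1 at 2.71 ± 0.16, and Gclc and Me1 were at -1.35 ± 0.24 and -1.19 ± 0.20. With DESeq2 factors over the listed genes 5 of the 9 passed, and Gpx2 was at 5.06 without untreated library 3. In WT + TCPOBOP only Ephx1 was listed, at 1.23 ± 0.17 with the authors' factors. It was at 0.05 ± 0.18 with DESeq2 factors and -0.02 ± 0.17 with TMM factors, and was not called under either.

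Markers of cell types also differed between the groups, some higher and some lower. Of 10 hepatocyte markers, 7 were listed for Setd8-LKO + TCPOBOP and all 7 were lower, with a median log2 change of -1.54. Their summed normalized counts had a median of 1663417 in untreated WT and of 528538 where labelled Setd8-LKO, and the most abundant, Alb, was at -1.34 ± 0.30. The 5 falling Akr1c genes were at -1.07 to -1.49. All 6 cholangiocyte markers rose. Their summed median went from 617 to 4969.5, with 1634 to 7506 in single libraries labelled Setd8-LKO, mainly through Spp1, whose mean went from 398.5 to 4083. Of 8 stellate cell and fibroblast markers, 4 were listed and rose, with Col1a1 at 2.64 ± 0.46. Of macrophage markers Marco alone was listed, of neutrophil markers 2 of 6 were listed, and of 6 endothelial markers 0 were listed. Marco was at 1.35 ± 0.35, but at 0.58 (adjusted p = 0.126, edgeR) with DESeq2 factors over the listed genes. The neutrophil marker S100a9 was at 1.5 ± 0.67 (adjusted p = 0.0494, edgeR), and this call was lost when any library but untreated library 4 was left out (adjusted p = 0.0517 to 0.122, edgeR). Without untreated library 4, S100a9 was at 2.42. In WT + TCPOBOP the listed markers were Ass1 and Lrat, which fell, and Marco, which was higher with the authors' factors and at -0.03 with TMM factors. No marker listed in the Setd8-LKO table was at 0 in any library, and those not listed were not analysed here. The part of these cells in the changes of the members was not tested.

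Genes with the pattern most like Akr1b7 were named by Pearson's r of log2(normalized count + 1) across the libraries of a table, as a description of libraries that share 2 groups. Over the 10 libraries of the WT + TCPOBOP table they were Cyp2b10 (r = 0.9991), the chemokine Ccl9 (0.9968), the carboxylesterase Ces2a (0.9917), Gm13857 (0.9914) and 9230116L04Rik (0.9912). Over the 9 libraries of the Setd8-LKO table they were BC016579 (0.9966), the mitotic kinase Pbk (0.9960), Gm20647 (0.9952), Cyp2b10 (0.9951) and Ect2 (0.9950), a regulator of cytokinesis. Cyp2b10 was the only gene on both lists. In Setd8-LKO + TCPOBOP against WT + TCPOBOP, the log2 difference of Ces2a was -1.87 ± 0.16 (adjusted p = 2.93e-06, edgeR), whereas Pbk and Ect2 were higher by 2.43 ± 0.40 and 1.91 ± 0.18.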

How the data were processed

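RNA-seq reads had been cleaned by the authors (PRINSEQ), mapped to mm10 (HISAT2) and summarised per gene by metaseqR. The deposited tables hold raw counts and normalized counts, a score equal to the raw count times 1 factor per library, to within 0.063%, and only for genes they selected as changed, so the depth of each library is unknown. Sums over the listed genes were 5734065 to 12780869 raw counts per library in the Setd8-LKO table. Their fold changes, p-values and means, and 114 columns of transformed counts, were not used. Peaks were called by the authors with MACS2 2.2.7.1, whose fold enrichment (a ratio) and -log10 p were deposited, and islands, with a deposited score, with SICER. ChIP-seq and CUT&Tag reads had been reduced to the smallest sample.

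Raw counts were tested with edgeR 4.0.16 under R 4.3.3 (glmQLFit, glmQLFTest) after filterByExpr at a minimum of 10 reads in a library of 40000000, the average RNA-seq depth that the study's documents state, scaled by the authors' factors, and adjusted by the Benjamini-Hochberg method over the genes of a table. Standard errors come from that model. DESeq2 1.42.0 served alternatives, which also left out each library. Permutation tests used scipy 1.17.1. The test was checked on simulated data. Replicate libraries differed by more than counting noise. Genes are those of GENCODE M21, and the reference GRCm38.p6 is the build of the files. The 2 tables turned out to share 1 normalization, so the direct comparison of the treated groups was added. The members and gene lists were chosen with earlier results of these data known. Named are all members, Kmt5a, Cyp2b10, listed neighbours within 200 kb of Akr1b7, the 2 largest rises and falls of each list, the 5 genes most like Akr1b7 in each table, every peak at Akr1b7 and the strongest peaks at the other members. The CTCF consensus was searched after the peaks were seen. A few results for single genes of the lists are not reported here.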

Additional observations from a re-analysis of the deposited data

Results flagged for a closer look

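Among 27 groups of member values put to Dixon's test for a single outlying library, 1 stood out, Akr1b7 in library 2 of those labelled Setd8-LKO, with 1574 normalized counts against 1010 to 1089 in the other 3. Chance gives about 1 in 20 groups. The same library was also the highest of its group for Gm13857 (936) and Akr1b3 (845). Without it the log2 fold change of Akr1b7 against untreated WT kept its direction and its call.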

How the results depend on the processing

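Of 166 log2 fold changes of members computed with 1 library left out, 163 kept their direction and their side of the threshold and 3 kept their direction only. Of 126 under the other alternatives 119 kept both, and the others came from factors computed over the listed genes. Such factors take most genes as unchanged, which these lists do not meet, so a lost call does not show that a gene was unchanged. With TMM factors, 2 members (4 with the authors' factors) and 327 listed genes (672) passed in WT + TCPOBOP, and with DESeq2 factors 2 and 333. There Akr1b3 was at -0.01 (TMM), Gm14546 at -0.10 (TMM) and -0.02 (DESeq2), Ephx1 at -0.02 and Marco at -0.03 (both TMM). Of the gene lists in WT + TCPOBOP, 0 carbonyl reductases (4), 13 CAR genes (24) and 0 NRF2 genes (1) passed under TMM and the same numbers under DESeq2 factors, and with p adjusted over all 55450 reference genes 0 polyol genes (1) did. In Setd8-LKO + TCPOBOP, DESeq2 factors left 14 CAR genes (22) and 5 NRF2 genes (9), and Kmt5a was at 0.27 and not called. Between the treated groups, 1 member passed under TMM and 1 under DESeq2 factors (0), and 130 genes (226) passed with p adjusted over the reference genes.

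With 1 library left out, 9 to 11 members passed in Setd8-LKO + TCPOBOP (4 to 6 of them lower) and 4 in WT + TCPOBOP each time, with 3416 to 3647 and 652 to 677 listed genes. Kmt5a ranged from 1.04 to 1.15. Between the treated groups 0 members and 211 to 231 genes passed. Same-numbered libraries did not deviate together (correlations from -0.44 to 0.31), so the numbers do not pair them. With the replicate block 11 and 4 members and 3460 and 660 genes passed, and 0 members and 207 genes between the treated groups, and the block ended no call of a member. With the run as a term these were 11 and 4 members, 3483 and 669 genes, and 0 members and 223 genes.

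Peak counts at the members moved with the window and the overlap asked for. With 50 kb on either side, ATAC-seq had 24 kept, 10 lost and 11 gained peaks (12, 5 and 3 with 5 kb), H3K27ac 39, 18 and 5 (23, 10 and 1), CTCF 3 kept and 6 gained (0 and 3), SMC3 3 kept, 5 lost and 6 gained (0, 1 and 3) and H4K20me3 1 kept and 1 gained (0 and 0). With a reciprocal overlap of 50%, H3K27ac had 14 kept, 19 lost and 7 gained. Within gene bodies alone, 2 ATAC-seq, 6 H3K27ac and 0 SMC3 peaks were lost, and 2 ATAC-seq peaks were lost at a -log10 p of at least 20. The alternatives for the direct comparison, the gene lists and the within-run values were chosen after seeing the data. The depth of each library is unknown, as the tables hold listed genes only, and the peak lists give no replicate error.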
